A study of Mus musculus with 11 samples.

Results

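The upstream antisense RNAs (uaRNAs) of very short genes were described. A uaRNA is the short-lived transcript that leaves an active promoter in the direction opposite to the gene, here called the host. Regions were taken whose mean over the 5 libraries was 10 or more, whose host spanned under 5000 bases from start to stop in the exon-based gene table, and whose host had no start of a counted gene of the opposite strand in the 5 kb upstream. The rule found 586 regions among 5124 tested and 5867 in the uaRNA table. It used no change between groups. For 4 of the 586 (the hosts Mccc2, Larp4, Taf3 and Usp14) the table lists the stop before the start, and RefSeq gives spans of 67.1, 46.3, 134 and 36.5 kb. They were set aside, which left 582 uaRNAs, or 11.4% of those tested. Another 71 regions with short hosts had a mean under 10 and 57 had an opposite-strand start nearby, and neither is described here.

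Nascent RNA was measured with TT-seq, short for transient transcriptome sequencing: cells label new RNA with 4-thiouridine (4sU), and the labelled RNA is isolated. The cells were wild-type F121-9, an established female mouse embryonic stem cell line of CAST/129 hybrid background, kept on gelatin in serum-free medium with LIF and inhibitors of MEK and GSK3. They were transfected with 30 nM of a non-targeting siRNA (siNT, replicates 1, 2 and 3, n = 3) or of an siRNA against Zc3h4 (siZC3H4, replicates 2 and 3, n = 2). They received 500 µM 4sU for 20 minutes and were harvested 47 hours after transfection. The design text speaks of biological replicates, but no label says that cultures were grown separately, so p-values measure the spread between these samples, which may in part be technical. Samples of a degron line treated with DMSO or dTAG-13 were not analysed here.

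ZC3H4 acts with WDR82 in the Restrictor complex, which ends early transcription of noncoding RNA such as uaRNAs and enhancer RNAs. A mammalian promoter commonly fires in both directions, and the upstream transcript is usually stopped and degraded within a short distance, whereas the sense transcript continues through the gene. Very short genes include replication-dependent histone genes, many ribosomal protein genes and immediate early genes, and their own ends lie close to their promoters. The next gene can therefore also lie close, and a gene of the opposite strand that ends just beyond a short host is transcribed towards that host's promoter on the strand of the uaRNA.

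The deposited values, called reads here, are read counts over one depth factor per library. Before that division the libraries held 14840637 to 26548710 exon reads and 996927 to 2648683 uaRNA reads. The target was examined first: Zc3h4 held 3465, 3610 and 3363 exon reads with siNT and 7285 and 6718 with the siZC3H4 label, a rise of 2.01-fold (limma adjusted p = 0.0043, log2 1.01 ± 0.11 SE). A label of knockdown would give a fall of mature mRNA, and these are reads of new RNA, so the labels are neither borne out nor refuted and each direction below is that of the libraries labelled siZC3H4. Wdr82 did not pass (log2 0.09). All 8 embryonic stem cell markers were present, from 3292 mean reads for Sox2 to 26100 for Tfcp2l1. Of the 6 fibroblast markers Col1a1, Col1a2, Dcn and Postn were not in the table, while Thy1 had 95.8 and Fn1 30159 mean reads, and the sum of the list overlapped between the groups. The 3 neural markers, of which Tubb3 had most reads (mean 1003), summed to 686 to 1018 with siNT and 1141 to 1520 with the siZC3H4 label, without overlap. Their part in the results was not tested. In such bulk samples, fewer cells of a type and less RNA per cell cannot be told apart.

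The hosts spanned 305 to 4988 bases, with a median of 3008, and 105 of them (18.04%) had a span equal to their transcript length, which means no intron in the table's model. Among the 4301 uaRNAs of longer hosts without an opposite-strand start nearby, 0.163% had such a host. Exon reads per kb of transcript had a median of 584 for the short hosts and 296 for the longer ones. The uaRNAs held between 10.3 and 55594 mean reads, with a median of 104 against 70.8 for longer hosts. RefSeq gives a span for 577 of the 582 hosts, and it is 5 kb or more for 63 of them, so the short span is that of the authors' gene models. The uaRNA table gives no coordinates, and positions below are those of the host in mm10.

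The promoters show what kind of sequence these uaRNAs leave. RefSeq (GRCm38.p6, the assembly also called mm10) gave a promoter whose start lay within 500 bases of the listed host start for 441 of the 582 hosts, and the 250 bases before that start were read. The windows printed are those of 3 of the largest rises, of 3 of the lowest changes, and of Rpl14, the ribosomal protein host with a window and the most uaRNA reads. They are examples rather than the strict extremes. Taf7 and Kctd11 rose more than Phpt1 and are not printed, and neither are P2rx2 and B3gnt9, whose changes were lower than that of Mettl26. All run 5′ to 3′ on the host's strand and end at the base before the RefSeq start, so the uaRNA is made leftwards. Capitals mark matches, on either strand, to the following motifs. GTAAGT resembles a 5′ splice site, as does the related hexamer GTGAGT. The main poly(A) signal is AATAAA and the TATA box is searched as TATAAA. NF-Y factors bind CCAAT, whereas SP factors bind GGGCGG. ETS factors bind GGAAGT, the core of YY1 sites is ATGGCGG, and that of NRF1 sites is TGCGCA, which is its own reverse complement. Overlapping matches were each counted, and a share of windows counts each window once. The windows are Hes6 (chr1:91413223-91413472, minus strand), Mpv17l2 (chr8:70760922-70761171, minus strand), Phpt1 (chr2:25574872-25575121, minus strand), Setd6 (chr8:95715663-95715912, plus strand), Pycard (chr7:127993868-127994117, minus strand), Mettl26 (chr17:25875250-25875499, plus strand) and Rpl14 (chr9:120571267-120571516, plus strand).
Hes6: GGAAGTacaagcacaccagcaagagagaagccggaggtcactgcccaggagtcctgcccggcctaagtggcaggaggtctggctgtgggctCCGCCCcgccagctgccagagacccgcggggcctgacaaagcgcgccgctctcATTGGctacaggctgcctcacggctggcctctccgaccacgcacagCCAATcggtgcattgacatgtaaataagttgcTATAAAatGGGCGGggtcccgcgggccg
Mpv17l2: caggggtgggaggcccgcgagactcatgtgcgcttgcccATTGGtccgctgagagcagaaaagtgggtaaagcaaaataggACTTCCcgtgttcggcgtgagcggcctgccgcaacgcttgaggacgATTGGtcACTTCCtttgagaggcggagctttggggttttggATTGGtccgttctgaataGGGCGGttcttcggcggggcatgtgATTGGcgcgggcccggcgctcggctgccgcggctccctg
Phpt1: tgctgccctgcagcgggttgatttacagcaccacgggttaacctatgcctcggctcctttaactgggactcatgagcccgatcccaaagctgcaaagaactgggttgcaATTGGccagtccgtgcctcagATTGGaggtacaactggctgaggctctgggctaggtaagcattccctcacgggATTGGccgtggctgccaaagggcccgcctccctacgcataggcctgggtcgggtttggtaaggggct
Setd6: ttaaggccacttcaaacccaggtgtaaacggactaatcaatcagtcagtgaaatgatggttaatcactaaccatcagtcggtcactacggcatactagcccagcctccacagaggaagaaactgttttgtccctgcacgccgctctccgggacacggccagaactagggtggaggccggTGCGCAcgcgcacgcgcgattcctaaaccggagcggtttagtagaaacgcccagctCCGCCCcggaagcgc
Pycard: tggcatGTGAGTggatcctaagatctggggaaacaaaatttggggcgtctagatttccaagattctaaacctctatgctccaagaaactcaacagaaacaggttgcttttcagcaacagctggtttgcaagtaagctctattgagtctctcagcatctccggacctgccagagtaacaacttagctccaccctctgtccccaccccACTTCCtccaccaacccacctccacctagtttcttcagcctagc
Mettl26: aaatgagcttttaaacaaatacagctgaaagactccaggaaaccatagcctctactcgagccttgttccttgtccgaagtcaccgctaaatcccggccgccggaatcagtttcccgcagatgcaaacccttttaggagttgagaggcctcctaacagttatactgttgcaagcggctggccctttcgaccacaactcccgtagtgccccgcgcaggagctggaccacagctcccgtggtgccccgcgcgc
Rpl14: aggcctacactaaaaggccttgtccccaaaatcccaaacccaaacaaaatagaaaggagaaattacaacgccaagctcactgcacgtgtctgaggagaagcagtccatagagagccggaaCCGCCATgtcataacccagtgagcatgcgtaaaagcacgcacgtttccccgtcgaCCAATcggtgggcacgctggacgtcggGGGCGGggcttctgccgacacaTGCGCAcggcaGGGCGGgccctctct

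Among these few windows, chosen by their change, CCAAT was matched in all 3 printed rises and in none of the 3 printed falls. Over all 441 windows the contrast was small. Of 207 hosts with CCAAT on either strand 128 uaRNAs rose and 6 fell, and of 234 without it 128 rose and 7 fell. Hes6, with the largest rise, has G+C of 64% and 6 matches, among them TATAAA on the gene strand and CCAAT on both strands. Mpv17l2 holds 7 matches, 4 of them CCAAT on the uaRNA strand, and Phpt1 holds CCAAT on that strand 3 times and no other motif searched. Of the windows whose uaRNA fell, Pycard has G+C of 48.8% with 2 CG dinucleotides and Mettl26 holds no match at all, whereas Setd6 has 20 CG dinucleotides and TGCGCA. The RefSeq start of Pycard lies 126 bases from the listed start, and that of Setd6 24 bases.

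Over the 441 windows, promoters of short hosts had a median G+C of 59.2% and 16 CG dinucleotides, against 62.8% and 19 for the 3323 longer hosts and 52.4% and 6 for all 32851 windows of that length in the table. TATAAA occurred on either strand in 8.39% of the short hosts' windows, 4.00% of the longer hosts' and 12.4% of all. CCAAT was found in 46.9%, 36.4% and 33.8%, GGAAGT in 28.6%, 24.9% and 19.7%, and GGGCGG in 60.8%, 69.0% and 32.7%. The rarer ATGGCGG was in 3.63%, 4.51% and 2.21%, and TGCGCA in 11.3%, 15.6% and 6.43%. GTAAGT was in 2.27%, 3.13% and 6.31%, GTGAGT in 7.03%, 8.46% and 11.0%, and AATAAA in 11.6%, 7.70% and 18.1%. With both strands counted, a larger share of short than of longer hosts' windows therefore matched the TATA, poly(A) and NF-Y motifs. A smaller share matched the SP motif. For the poly(A) hexamer the difference lay mainly on the gene strand, at 8.16% against 4.97% of windows. On the uaRNA strand that hexamer was in 3.63% and 3.31%. TATA matches were counted at any position in the window.

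Most of these uaRNAs rose. In the libraries labelled siZC3H4 the number that rose was 340 of 582 (58.4%), while 21 (3.61%) fell and the other 221 missed the threshold. The test was limma on log2(value + 1) with p-values adjusted over all 5124 uaRNAs and a threshold of 0.05. Over all uaRNAs tested 62.1% rose and 1.13% fell. The median change was log2 0.85 (1.80-fold, interquartile range 0.35 to 1.36), against 0.88 over all, and 249 (42.8%) rose at least 2-fold, against 42.6%. Both libraries labelled siZC3H4 lay above every siNT library for 398 uaRNAs (68.4%, against 73.7% of all) and below every one for 23 (3.95%, against 2.11%). The share that rose was thus near the background, while 21 of the 58 uaRNAs that fell in the whole table had a very short host. That number rests on single libraries: leaving out siNT replicate 1 gave 13 falls (2.23%, against 0.664% of all uaRNAs), leaving out siNT replicate 3 gave 8 (1.37%, against 0.625%), and leaving out siZC3H4 replicate 2 gave 3 (0.515%, against 0.312%).

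**Figure D1:**
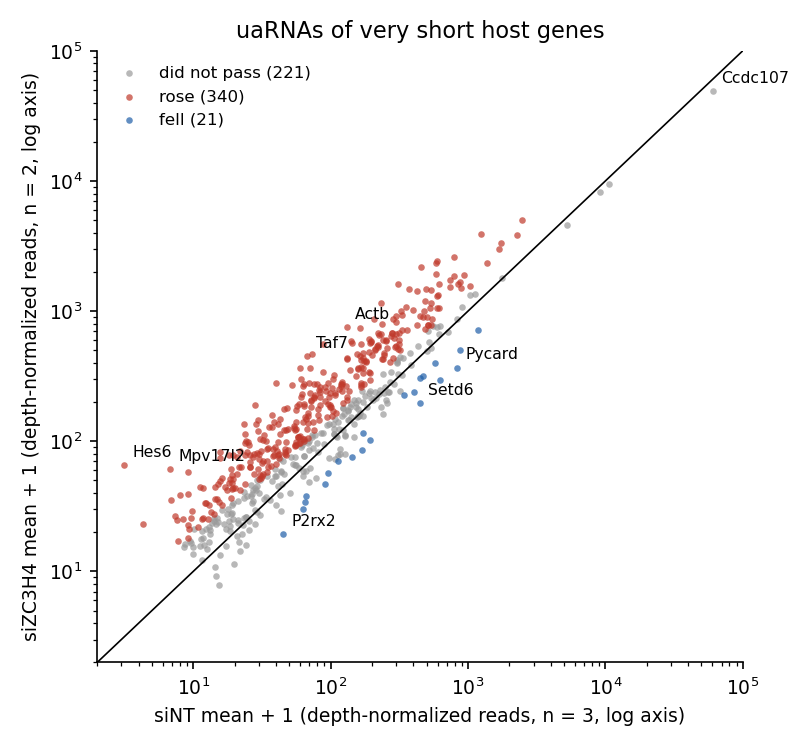
Mean reads of the 582 uaRNAs of very short hosts, plus 1, in the siNT libraries (n = 3, x axis) and in the libraries labelled siZC3H4 (n = 2, y axis), both on log axes; the line marks equal values. The 340 that rose (red) lie above the line at all levels, the 21 that fell (blue) below it, and Ccdc107, with the most reads, lies near it.

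Library by library, the median uaRNA of a short host lay -0.25, -0.45 and -0.30 log2 units from its own mean over the 5 libraries with siNT, and 0.66 and 0.39 with the siZC3H4 label. The groups did not overlap, and the difference of 0.86 exceeded the pooled SD of 0.14 between replicates. uaRNAs of longer hosts gave a difference of 0.91, and the short minus the longer hosts differed by -0.05 between the groups with a pooled SD of 0.04. Exon reads of the short hosts themselves moved by 0.02 (pooled SD 0.04). The direction of the uaRNA values taken by themselves rests on the deposited depth factors. Scaling the uaRNA table on itself, which removes a shift common to most uaRNAs, moves the median of the short hosts' uaRNAs to -0.029 (median of ratios, 89 rose and 97 fell) or -0.0043 (TMM, 90 and 93). Relative to the exon reads of the hosts, where a factor common to both tables cancels, the difference between the groups was 0.87 (pooled SD 0.11).

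**Figure D2:**
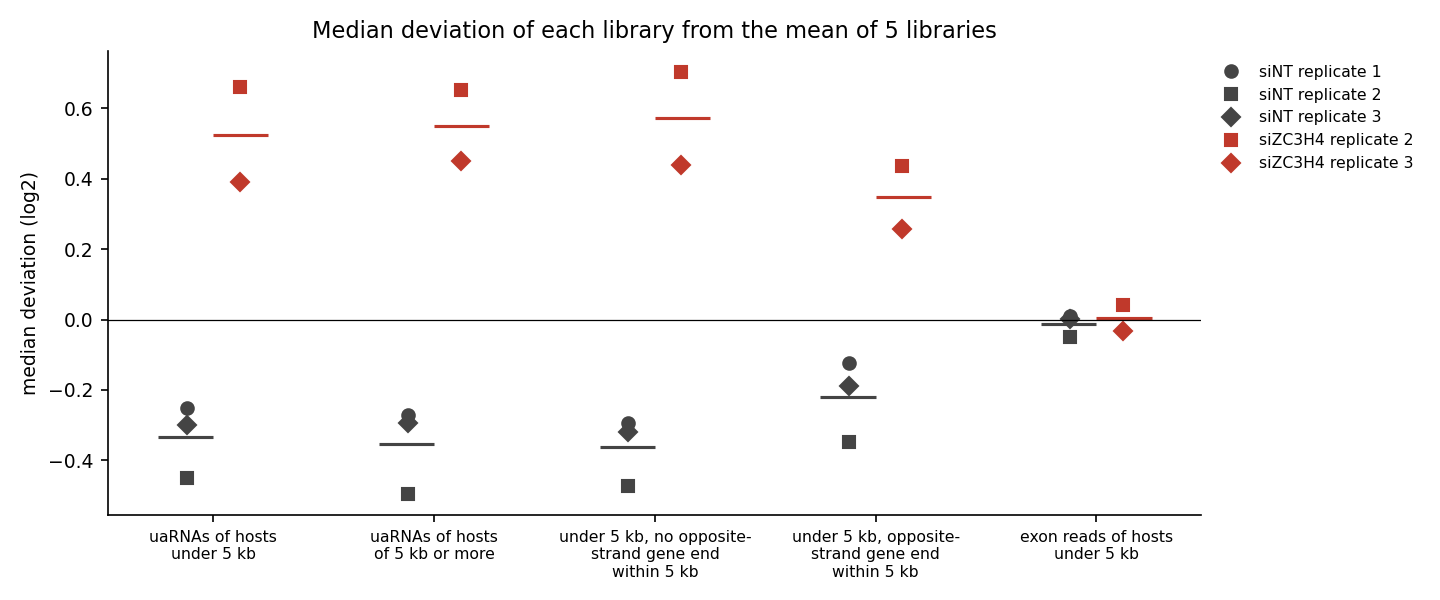
Median deviation (log2) of each library from the mean of the 5 libraries, for sets of uaRNAs and for the exon reads of the short hosts; points are libraries and bars group means. The libraries labelled siZC3H4 lie at 0.39 and 0.66 for uaRNAs of hosts under 5 kb, and lower, at 0.26 and 0.44, for those with an opposite-strand gene end within 5 kb.

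The largest rises were at hosts of many functions. The uaRNA of Hes6 (ENSMUSG00000067071, chromosome 1, 91411483 to 91413220, minus strand), a helix-loop-helix factor of neurogenesis, held 3, 1.74 and 1.71 with siNT and 60.6 and 68.8 with the siZC3H4 label. It was close to absent in all 3 siNT libraries and well detected in both others (log2 4.40 ± 0.51 SE, limma adjusted p = 2.0e-10). That of Mpv17l2, a mitochondrial membrane protein needed for mitochondrial ribosome assembly, held 6, 9.57 and 1.71 against 84.9 and 35.4 reads (log2 3.26 ± 0.49 SE, limma adjusted p = 1.5e-07). Its groups did not overlap either, although the libraries labelled siZC3H4 stood apart from each other, and RefSeq starts the opposite-strand gene 6330537M06Rik 219 bases upstream. At Taf7, a subunit of the initiation factor TFIID, uaRNA reads were 53, 47.0 and 101 against 469.7 and 425 (log2 2.81 ± 0.27 SE, limma adjusted p = 1.7e-12). Kctd11, an adaptor of a cullin ubiquitin ligase, had 45, 40.9 and 30.7 against 342 and 214 (log2 2.79 ± 0.29 SE, limma adjusted p = 8.7e-12). Phpt1, a phosphohistidine phosphatase, had uaRNA reads of 27, 27.0 and 28.2 against 223 and 157 (log2 2.73 ± 0.31 SE, limma adjusted p = 7.4e-11). In each of these 3 the lowest library labelled siZC3H4 exceeded the highest siNT library several-fold.

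Housekeeping hosts were among the next places. uaRNA reads of Rpl13, a large ribosomal subunit protein, were 91, 93.9 and 74.2 against 746 and 377 (log2 2.61). H2ac18, a histone H2A gene, had 19, 17.4 and 30.7 against 123 and 146 (log2 2.57), and Actb, the gene of beta-actin, had 124, 126 and 139 against 867 and 631 (log2 2.504). None of these groups overlapped, and each limma adjusted p was 3.3e-09 or lower. Exon reads of their hosts did not pass: the host log2 changes were -0.02, -0.56 and -0.18.

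The uaRNAs that fell were smaller changes than the largest rises, at most 2.36-fold. At Setd6 (ENSMUSG00000031671, chromosome 8, 95715937 to 95719004, plus strand), a lysine methyltransferase, uaRNA reads were 490, 328 and 519.6 with siNT and 134 and 255 with the siZC3H4 label (log2 -1.24 ± 0.25 SE, limma adjusted p = 2.5e-05). Pycard (ENSMUSG00000030793, chromosome 7, 127991373 to 127993741, minus strand), the inflammasome adaptor ASC, had 848, 650.4 and 993 against 254 and 479 (log2 -1.23 ± 0.23 SE, limma adjusted p = 8.6e-06). The groups did not overlap at either, and the library labelled siZC3H4 replicate 2 was the lower of the pair at both. B3gnt9, a glycosyltransferase gene, had uaRNA reads of 758, 488 and 626 against 224 and 362 (log2 -1.10 ± 0.23 SE, limma adjusted p = 5.1e-05), and P2rx2, an ATP-gated ion channel, 45, 24.3 and 63.1 against 17.5 and 19.1 (log2 -1.13 ± 0.38 SE, limma adjusted p = 0.0085). The latter's reads were few and its siNT libraries spread widely.

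Other falls were those of Mettl26 (log2 -1.09, 54, 45.2 and 87.0 against 19.8 and 38.2 reads), Ifitm5, a bone-restricted member of the interferon-induced transmembrane family (log2 -0.95, 144, 110.4 and 169 against 53.8 and 94.6), and Endog, the mitochondrial endonuclease G (log2 -0.92, 178, 155 and 247 against 78.1 and 126). Jmjd8 followed (log2 -0.88, 89, 54.8 and 126 against 40.7 and 51.6), and H2bu2 and H2aw, histone genes that neighbour each other on chromosome 11, both had log2 -0.74. In all 6 both libraries labelled siZC3H4 lay below all siNT libraries, with limma adjusted p between 0.0025 and 0.044. The remaining falls, from log2 -0.94 at Limd2 to -0.51 at Npff, included Dnajc19, a co-chaperone of mitochondrial import (log2 -0.56, 542, 371 and 506 against 291 and 344 reads). The falls of Setd6, Pycard and B3gnt9 passed whichever library was left out. Those of P2rx2, Mettl26, Ifitm5, Endog, Jmjd8, H2bu2, H2aw and Dnajc19 did not pass without siZC3H4 replicate 2.

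Falls went with a converging neighbour. For each host the nearest counted gene of the opposite strand was sought whose listed end lay downstream of the host start, that is, a gene transcribed towards the host promoter on the strand of the uaRNA. Such an end lay within 5 kb of the start for 148 of 582 short hosts (25.4%), against 20 of 4301 longer hosts (0.465%). A longer host fills those 5 kb itself, so an end there has to lie inside the host. The span rule thus favours this contrast, which is no separate trait of the short hosts. Among those 148 uaRNAs 67 rose and 13 fell, with a median log2 of 0.57. Among the other 434, 273 (62.9%) rose and 8 fell, with a median of 0.95. Thus 13 of the 21 falls had a converging end within 5 kb.

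The median was higher at larger distances. With the end within 2 kb, 9 of 35 uaRNAs rose and 7 fell (median log2 0.14); at 2 to 5 kb 58 of 113 rose and 6 fell (0.67); at 5 to 20 kb 62 of 106 rose and 6 fell (0.84); and beyond 20 kb 211 of 328 rose and 2 fell (0.98). For longer hosts the medians at 5 to 20 kb and beyond 20 kb were 0.81 over 455 uaRNAs and 0.92 over 3826. Few longer hosts have a closer end, and their medians did not follow the same order: within 2 kb 4 of 6 rose and 0 fell (median 0.88), and at 2 to 5 kb 7 of 14 rose and 0 fell (0.69). The median of the 35 short hosts with an end within 2 kb turned to -0.044 without siNT replicate 2, and their 7 falls became 1 without siZC3H4 replicate 2, 2 without siNT replicate 3 and 4 without siNT replicate 1. Per library, the medians of the 148 lay at -0.12, -0.35 and -0.19 with siNT and 0.44 and 0.26 with the siZC3H4 label, a difference of 0.57 with a pooled SD of 0.12. Those of the 434 lay at -0.29, -0.47 and -0.32 against 0.70 and 0.44. When each library was left out in turn, the median of the 148 ranged from 0.47 to 0.64 and that of the 434 from 0.82 to 1.12, whereas the 13 falls ranged from 2 (without siZC3H4 replicate 2) to 19.

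**Figure D3:**
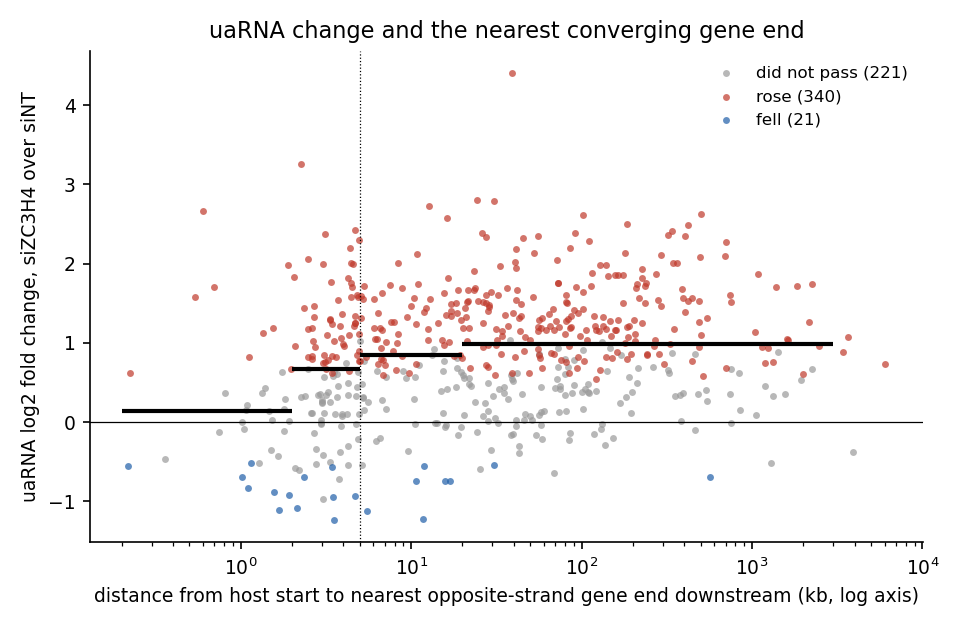
uaRNA log2 fold change (libraries labelled siZC3H4 over siNT) of the 582 short hosts against the distance in kb, on a log axis, from the host start to the nearest opposite-strand gene end downstream; black bars are medians of the 4 distance classes and the dotted line marks 5 kb. The medians climb from 0.14 within 2 kb to 0.98 beyond 20 kb, and 13 of the 21 falls (blue) lie left of 5 kb.

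Of the 147 converging genes ending within 5 kb that were tested, 3 passed, against 2.22% rises and 0.144% falls over all genes, and the median log2 of their exon reads was -0.04. Beside the 13 falls their median level was 1628 exon reads, against 640 beside the 67 rises, and the median distance was 1934 bases against 3404. Setd6 has the end of Cnot1, a scaffold of the CCR4-NOT deadenylase, 3514 bases from its start (exon log2 -0.04, mean 11412 reads), and Endog has that of Spout1 at 1934 bases. Bricd5 has Mlst8, a subunit of mTOR complexes, ending 219 bases from its start. A close end did not always go with a fall: Mpv17l2 has that of Rab3a at 2261 bases, and its uaRNA rose. Outside the 5 kb class, the converging gene of Sertad1 is Gm15541, which ends 15765 bases from its start and rose (exon log2 1.58), while the Sertad1 uaRNA had log2 -0.74. Whether reads of the converging genes enter the uaRNA values was not tested.

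Other neighbours were compared in the same way. At 20 hosts whose start lay inside an opposite-strand gene, 9 uaRNAs rose and 1 fell, with a median log2 of 0.45, against 0.86 for the other 562. A same-strand gene ending within 5 kb upstream (135 hosts) went with a median of 0.86, against 0.85 without one. For 72 hosts RefSeq places an opposite-strand start within 5 kb upstream that the counted table lacks, and their median was 0.80 against 0.86. A RefSeq gene body in the 1 kb upstream of 175 hosts went with 94 rises, 10 falls and a median of 0.76, against 246, 11 and 0.89 for the other 407. Of these classes, a close converging end and a start inside an opposite-strand gene had the lowest medians.

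Within the short hosts, medians differed modestly between classes of span. The 143 hosts of 4 to 5 kb had a median uaRNA log2 of 0.94, with 94 rises (65.7%) and 1 fall, and the 103 of 1 to 2 kb had 0.66, with 49 rises (47.6%) and 6 falls. Medians were 0.75 for the 32 under 1 kb, 0.82 for the 154 of 2 to 3 kb and 0.85 for the 150 of 3 to 4 kb. A converging end within 5 kb was found at 16.1% of the hosts of 4 to 5 kb and at 35.0% of those of 1 to 2 kb. Across the classes of longer hosts the median stayed between 0.87 and 0.95, while the share that fell went from 1.27% at 5 to 10 kb to 0.18% at 100 kb or more. The median of hosts under 5 kb was -0.06 log2 units from that of longer hosts, and 0.04 from it once uaRNAs with a converging end within 5 kb were left out of both.

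Intron-containing and intronless hosts had medians of 0.86 (477 uaRNAs) and 0.73 (105 uaRNAs). Exon reads per kb and the uaRNA change had Pearson r = 0.23 across the 582 hosts (Spearman 0.24), host span and the change r = 0.12 (Spearman 0.13), and mean uaRNA level and the change r = -0.01 (Spearman 0.02). These correlations are across genes of the same 5 libraries, which are not independent replicates, and are descriptions. By level, 46 of the 115 uaRNAs in the lowest quartile of all uaRNAs rose (40.0%) and 69 did not pass. In the highest, 122 of 183 rose (66.7%) and 10 fell (5.46%), and the medians were 0.85 and 0.88. Over all uaRNAs, 47.9% rose in the lowest quartile, and in the highest 68.6% rose and 2.19% fell. Fewer thus passed at low levels both among the short hosts, at a similar median, and over all uaRNAs.

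Shortest of all is Nkain2, which the table lists with 305 bases, and its uaRNA held 204, 137 and 186 against 212 and 229 reads (log2 0.35). The histone genes H4c6 (411 bases) and H2ac10 (430 bases) had uaRNA log2 values of 0.73 and 0.89, both rises, although H4c6 did not pass once any library was left out. At the other edge, Llph, Uqcrfs1 and Rbis (4988, 4975 and 4964 bases) had log2 values of 1.33, 0.88 and 0.90, and Spout1, Ubald2 and Mif4gd, just above the limit at 5002, 5005 and 5005 bases, had 0.75, 0.60 and 0.66. At the limit on level, Tor4a, Mrpl11 and Metrn were just inside and C130073F10Rik, Spef1l and D8Ertd738e just outside, the last with a mean of 9.79 reads.

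Few hosts passed the test themselves. Exon reads of 13 of 580 tested hosts (2.24%) rose and those of 3 (0.517%) fell, against 2.22% and 0.144% of all 12482 genes, and the median was log2 -0.0031. Among the 5106 tested hosts of all uaRNAs 1.12% rose and 0.0979% fell. Among 4286 longer hosts without an opposite-strand start nearby the shares were 0.910% and 0.0467%. The hosts Nkain2 and Tmem200b had too few exon reads for the test. Of the 340 hosts whose uaRNA rose, 7 rose themselves and 333 did not pass. Of the 21 whose uaRNA fell, 3 fell and 18 did not pass. These host counts depend on single libraries: limma called 0 rises when siNT replicate 1 was left out, 8 when siNT replicate 2 was and 30 when siNT replicate 3 was. Leaving out siZC3H4 replicate 2 gave 1 rise, and leaving out replicate 3 of that group gave 4. Over all genes the share that rose went from 0.0160% to 5.42% under the same omissions. With all 5 libraries 101 of the 580 hosts had an unadjusted limma p under 0.05, against 1915 of the 12482 genes. DESeq2 called 26 host rises and 11 falls (4.5% and 1.9%, against 4.3% and 0.78% of all genes).

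The hosts that rose include low and tissue-restricted genes. Morc2b, a germline MORC-family ATPase gene, had 6, 2.61 and 11.9 against 36.8 and 42.1 exon reads (log2 2.55 ± 0.54 SE, limma adjusted p = 0.045), and its uaRNA rose too (log2 1.21), a call lost without siNT replicate 2 or either siZC3H4 replicate. Gm16253 had exon reads of 18, 16.5 and 28.2 against 69.6 and 72.7 (log2 1.76 ± 0.33 SE, limma adjusted p = 0.029) and Ssc4d, a scavenger receptor gene, 425, 442 and 375 against 1477 and 1134 (log2 1.65 ± 0.16 SE, limma adjusted p = 0.0035). In these 3 both the uaRNA and the exon reads rose, with no overlap of the groups in either. The opposite-strand gene Polr3gl ends 702 bases from the start of Gm16253, and whether its reads enter that uaRNA was not tested. BC025920 (exon log2 1.74) and Gstm4, a glutathione transferase (exon log2 1.54), rose while their uaRNAs did not pass (log2 0.65 and 0.94). Among the others were Bcdin3d, an RNA methyltransferase and Bbs10, a chaperonin-like protein of the primary cilium, both with an exon log2 of 1.09.

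The 3 hosts that fell were H2bu2, H2aw and Bricd5. Exon reads of H2bu2 were 118, 124 and 102 with siNT and 41.3 and 48.8 with the siZC3H4 label (log2 -1.33 ± 0.24 SE, limma adjusted p = 0.024), and those of H2aw 1268, 1099 and 932 against 535 and 532 (log2 -1.03 ± 0.16 SE, limma adjusted p = 0.013). The groups were far apart at both. Bricd5 had 398, 350.4 and 282 against 178 and 186 (log2 -0.90 ± 0.19 SE, limma adjusted p = 0.0498). All 3 also had a uaRNA that fell, and the uaRNA relative to its host did not pass for any of them. These calls rest on single libraries: without siNT replicate 1, and without either replicate of siZC3H4, neither the uaRNA nor the exon fall of any of the 3 passed.

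**Figure D4:**
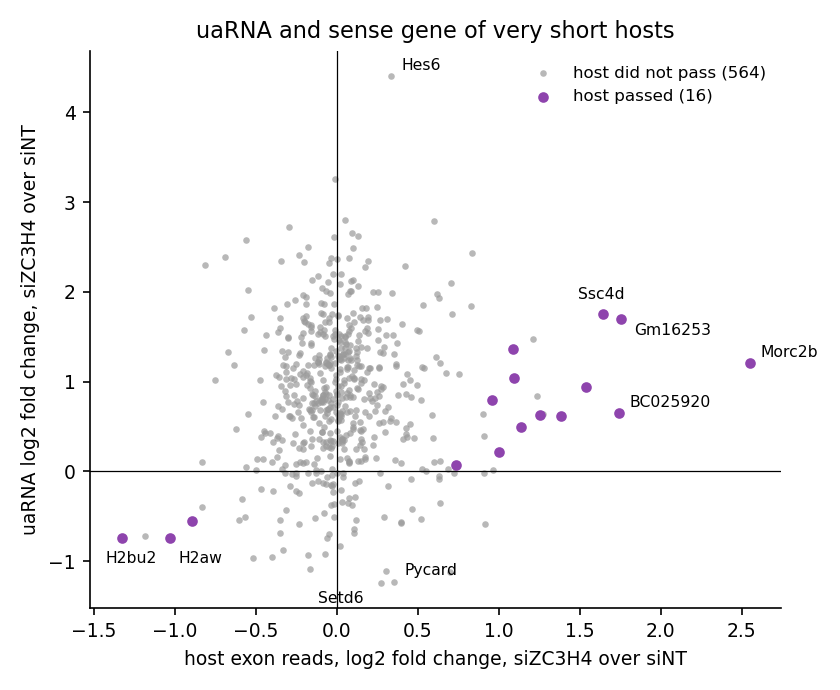
uaRNA log2 fold change (y axis) against the log2 fold change of the host's exon reads (x axis), libraries labelled siZC3H4 over siNT, for the 580 hosts tested; purple points are the 16 hosts that passed the test. Most points spread upwards around a host change of 0, with Hes6 at 4.40, while H2bu2 and H2aw lie low on both axes.

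Measured against its own host within each library, where a depth factor common to both tables cancels, the uaRNA of 298 of 580 hosts (51.4%) rose and that of 19 (3.28%) fell, against 53.9% and 1.23% of all 5106 pairs, with a median of log2 0.86. Of the 340 uaRNAs that had risen, 283 rose relative to the host, 55 did not pass and 2 fell, and of the 21 that had fallen, 7 fell. Hes6 (log2 4.07), Mpv17l2 (3.27), H2ac18 (3.13), Hdhd3, a hydrolase-family gene (3.12), and the histone H3 gene H3c13 (3.08) had the largest rises. P2rx2 (-1.83), Pycard (-1.58), Setd6 (-1.51), Mfsd3, a transporter-family gene (-1.50), and B3gnt9 (-1.41) had the largest falls. Mfsd3 differs from the other 4 in that its uaRNA did not pass (log2 -0.58, and -0.77 with a call without siNT replicate 2) and its exon reads were higher (log2 0.92, not passed). Without siZC3H4 replicate 2, the rises numbered 131 (22.6%, against 17.9% of all pairs) and the falls 1 (0.172%, against 0.333%), and none of these 5 falls passed.

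Families of hosts were compared with the 582 as a whole, of which 195 fell into at least 1 of 17 lists. The lists were drawn by symbol pattern and so hold some genes named for a partner, such as Rps19bp1, which binds a ribosomal protein, in the ribosomal list and Psmc3ip, a meiotic recombination factor, in the proteasome list, both of them rises. Among the 45 hosts of the cytosolic ribosomal list, 34 uaRNAs rose and 11 did not pass, with a median log2 of 1.21. Scaling the uaRNA table on itself puts the median of all uaRNAs near 0. The sign of a list median then shows only whether the list lies above or below all uaRNAs, and is no separate test. For the ribosomal list that median was 0.34 by median of ratios and 0.37 by TMM. Exon changes of these hosts lay between log2 -0.14 and 0.36, with a median of 0.07. The list includes Rpl23a (1015, 1043 and 735 against 2611 and 1207 uaRNA reads, log2 0.95, or 0.39 without siZC3H4 replicate 2) and Rpl14, whose promoter is printed above (584, 623 and 568 against 2838 and 1983, log2 2.00). The lowest member was Rps29, with log2 -0.37. A converging end lay within 5 kb of 10 of these hosts. The 34 of 45 stand against 62.1% rises over all uaRNAs, and 26 of 45 without siZC3H4 replicate 2 against 35.9%.

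In the 8 tubulin, actin and trafficking hosts every uaRNA rose (median 1.33, at 0.45 and 0.48 under the scalings just named), including Actb, Tubb2b, a beta-tubulin (log2 1.29), and Arf6, a small GTPase of membrane traffic (log2 1.11). All 3 translation factor hosts rose, with Eif1 at 1.61, Eef1a1, the elongation factor that delivers tRNA, at 1.73 and Eif5a at 1.24. Of 16 immediate early and Id genes, rapidly induced transcription regulators, 11 rose and 5 did not pass (median 1.09), among them Ier2 (log2 0.95) and Btg2 (2.10), while Ier5l had 0.08. Chaperone hosts had 6 rises and 1 fall of 8, with Hspa8, a constitutive HSP70, at 1.74 and Dnajc19 the fall. The 9 cell cycle and apoptosis hosts had 6 rises (median 1.25), among them Cdc20, an activator of the anaphase-promoting complex (1.25), and Cdkn2aip (1.45).

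Among stem cell regulators, 4 of 5 pluripotency hosts rose (median 0.93). Pou5f1, which encodes OCT4, had uaRNA reads of 856, 833 and 863 against 1783 and 1472 (log2 0.93 ± 0.20 SE, limma adjusted p = 9.2e-05), and Sox2 311, 288 and 340.4 against 602 and 593 (log2 0.93 ± 0.22 SE, limma adjusted p = 3.1e-04). Dppa5a, a gene of early embryonic cells, rose by log2 1.16, and Klf2 had 0.48. Of the 9 Sox, Fox, homeobox and helix-loop-helix hosts 4 rose (median 0.62, turning to -0.24 and -0.21 under the scalings, and 0.34 without siZC3H4 replicate 2 to 0.94 without siZC3H4 replicate 3), with Hes6 highest and Hes7, an oscillating repressor of somite formation, lowest at -0.47.

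At histone hosts the uaRNA and exon medians had opposite signs. Of the 20 replication-dependent or related histone hosts, a list drawn up after the symbols had been seen, 14 uaRNAs rose and 2 fell (H2bu2 and H2aw), with a median of log2 1.01 (0.14 by median of ratios and 0.16 by TMM). Their exon reads had a median of -0.38, against -0.0031 for all short hosts, with 2 falls. Relative to the host, 15 of the 20 rose (median 1.25). At H4c14, a histone H4 gene, uaRNA reads were 148, 183 and 167 against 425 and 422 (log2 1.35 ± 0.24 SE, limma adjusted p = 3.2e-06), and at H2bc14, a histone H2B gene, 240, 183 and 259 against 234 and 261 (log2 0.13). The first rose in both libraries labelled siZC3H4 and the second overlapped between the groups.

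Lower medians were found for uncharacterised Rik, Gm and sequence-named hosts, with 12 rises and 1 fall of 28 (median 0.58) and 3 hosts that rose, and for hosts of respiratory chain and ATP synthase subunits, with 6 rises of 16 (median 0.63). Ndufs8 of complex I and Atp5g1 of the ATP synthase, the best measured of the latter, had log2 0.45 and 0.01 and did not pass, although Ndufs8 did without siNT replicate 2 (0.52) or siZC3H4 replicate 3 (0.74). BC003965 rose (log2 1.04). Of 7 mitochondrial ribosomal protein hosts 4 rose (median 0.72), among them Mrpl52 (1.11) and Mrpl12 (1.18). Of 8 proteasome and ubiquitin hosts 6 rose (median 0.75), with Ube2s, a partner of the anaphase-promoting complex, at 0.84. These 4 medians lay below the 0.88 of all uaRNAs. They were therefore negative under those scalings, between -0.27 for the uncharacterised hosts and -0.11 for the proteasome list.

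Of 9 zinc finger Zfp hosts 5 rose (median 0.96), although the most abundant, Zfp553 (1234, 1049 and 1093 against 1336 and 1345 reads) and Zfp784, had log2 values of 0.26 and 0.32. Of the 4 general and Mediator factor hosts 3 rose, among them Med11 (1.83), and both RNA polymerase subunit hosts rose, Polr2k (0.87) and Polr3d (0.73). Among 3 splicing hosts Hnrnpa0 rose (1.71), and Lsm10 of the U7 snRNP had -0.17. The 387 hosts in no list had 215 rises, 17 falls and a median of 0.81. Without siZC3H4 replicate 2, when 35.9% of all uaRNAs rose, the rises numbered 9 of 20 for histones, 6 of 8 for tubulin, actin and trafficking hosts, 3 of 16 for the respiratory chain (median 0.42), 2 of 7 for mitochondrial ribosomal proteins and 2 of 9 for Zfp hosts. The same omission left 0 of 2 rises for RNA polymerase subunits and 141 of 387 for hosts in no list, and without siNT replicate 1 only Polr2k of the polymerase subunits passed.

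**Figure D5:**
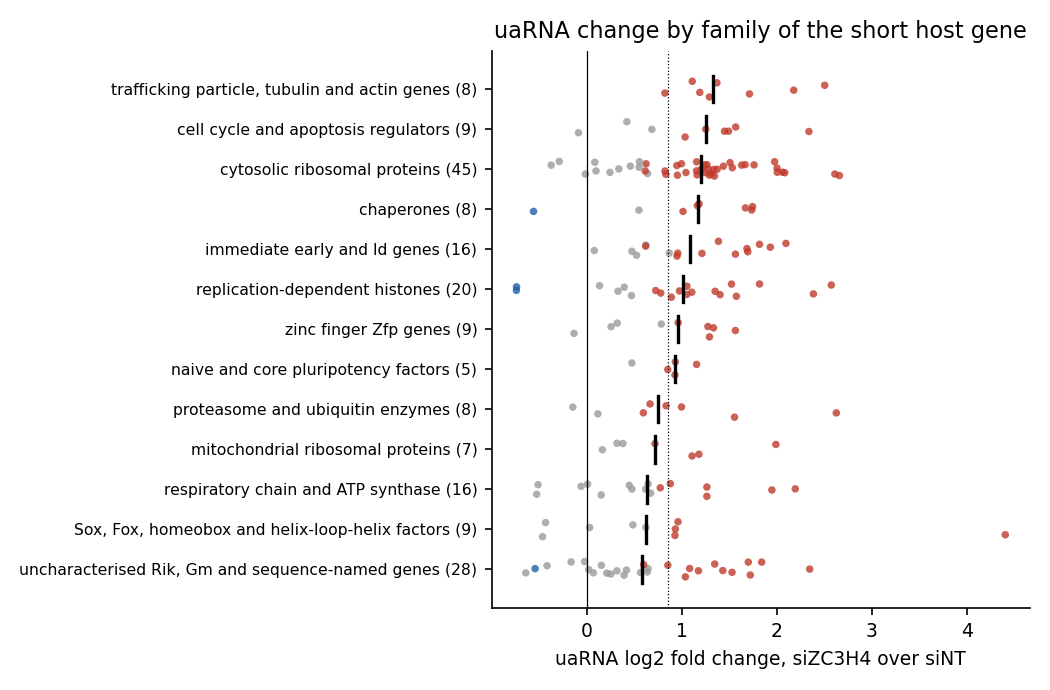
uaRNA log2 fold change (libraries labelled siZC3H4 over siNT) by family of the short host, for lists of 5 or more; points are uaRNAs (red rose, blue fell, grey did not pass), black bars medians, the dotted line the median of all 582 (0.85), and numbers in brackets list sizes. All 8 tubulin, actin and trafficking hosts are red, and the uncharacterised hosts have the lowest median, 0.58.

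The uaRNA regions with the most reads did not pass. Ccdc107, a coiled-coil gene, had 47630, 56156 and 76815 with siNT and 34738 and 62632 with the siZC3H4 label (log2 -0.34). It did pass without siNT replicate 1 (-0.49) or siZC3H4 replicate 3 (-0.76) and had 0.086 without siZC3H4 replicate 2. RefSeq places Rmrp, the RNA of RNase MRP, in the 1 kb upstream. Ccdc107 took 13.5% to 38.1% of all reads of these uaRNAs in a library. Atf5, a stress-responsive transcription factor, had 11557, 8822 and 11321 against 9011 and 9978 and 1810009A15Rik 10522, 7936 and 9131 against 8059 and 8242. Rab24, a small GTPase of autophagy, had 5503, 5475 and 4885 against 4919 and 4249.5. The groups overlapped at all 4 of these regions. All 4 passed as falls, at log2 -1.01 to -1.23, once the uaRNA table was scaled on itself, that is, relative to the median shift of all uaRNAs. The starts of Atf5 and Rab24 lie inside a gene of the opposite strand. Without Ccdc107, the short hosts' uaRNAs took up 13.2% to 13.6% of all uaRNA reads with siNT and 13.9% to 15.1% with the siZC3H4 label.

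Promoter features were set beside the change for the 441 hosts with a window. With AATAAA on the uaRNA strand, 4 of 16 rose (median 0.33), against 252 of 425 without it (median 0.86). A splice-like GTAAGT or GTGAGT on that strand was found at 18, of which 11 rose (median 1.06, against 0.85). Medians with and without the other motifs on either strand were 0.87 and 0.85 for TATAAA (37 with it), 0.96 and 0.80 for CCAAT (207), 0.85 and 0.85 for GGGCGG (268), and 0.95 and 0.83 for GGAAGT (126). For ATGGCGG they were 0.59 and 0.86 (16) and for TGCGCA 0.77 and 0.85 (50). With the windows split into 3 classes of G+C, 78 of 151 rose and 8 fell in the lowest (median 0.76), 89 of 144 and 3 in the middle (0.94), and 89 of 146 and 2 in the highest (0.85). G+C and the change had Pearson r = 0.09 across the 441 genes. The groups with AATAAA or a splice-like motif are small and hold a few uaRNAs each.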

How the data were processed

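The authors deposited depth-normalized signal for uaRNA regions and for genes counted over exons. The submitters' processing notes name mm10 and dm6 as builds, and featureCounts, STAR, DESeq2 and cutadapt 1.14 as software. The sources used here do not say how the factors were obtained or whether counting used the strand of the stranded kit, so reads of overlapping antisense genes may not be separable. Each value was a whole read number (100% of values, tolerance 0.01) divided by a factor of 1, 1.15 or 1.172 (siNT) or 1.767 or 1.046 (siZC3H4).

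Features with a mean of 10 or more were tested with limma 3.58.1 (R 4.3.3, eBayes with trend, no block) on log2(value + 1), siZC3H4 minus siNT, over 5124 uaRNAs, 12482 genes and 5106 uaRNA and host pairs, with Benjamini-Hochberg adjustment and a threshold of 0.05. This scale understates changes of low features. The moderated degrees of freedom were 67.5 (uaRNAs), 9.22 (genes) and 14.7 (pairs), so single uaRNA p-values rest largely on spread borrowed across uaRNAs. The fits were tested on simulated data. Named uaRNAs were the 10 largest changes each way without overlap between groups, the 5 with most reads, the 2 with most reads per list, hosts that passed, the extremes relative to the host and those at the rule's limits. Some genes that this rule names are not reported here. The regions, lists and tests were chosen with earlier results of these data known; converging ends, histones and RefSeq neighbours were added after seeing the values. Alternatives were other pseudocounts, filters, scalings, tools, spans and windows, a replicate block and leaving out each library.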

Additional observations from a re-analysis of the deposited data

How the results depend on the processing

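Counts of uaRNAs that rose and fell stayed near 340 and 21 under other pseudocounts and with edgeR (350 and 23) or DESeq2 (310 and 17) on the recovered reads. Scaling the uaRNA table on itself centres it and ends most calls: 89 rose and 97 fell with a median of -0.029 by median of ratios, and 90 and 93 with -0.0043 by TMM, and the host median became -0.044 by median of ratios. Under those scalings, in this order, the log2 values reversed to -0.88 and -0.86 for Atp5g1, -0.75 and -0.73 for H2bc14, -0.15 and -0.12 for H4c6, -0.81 and -0.79 for Ier5l, -0.16 and -0.13 for Polr3d, -0.057 and -0.031 for Ube2s, -0.64 and -0.61 for Zfp553, -0.57 and -0.54 for Zfp784, and to -0.013 for Polr2k by median of ratios. Leaving out each library gave 233 to 337 rises, 3 to 29 falls and medians of 0.74 to 1.01 for uaRNAs, 0 to 30 rises, 0 to 19 falls and medians of -0.040 to 0.037 for hosts, and 131 to 294 rises and 1 to 21 falls, with medians of 0.74 to 1.01, relative to the host. The difference of medians between short and longer hosts ranged from -0.064 to -0.00047, and became 0.041 with classes of transcript length and 0.043 without converging ends within 5 kb, which also left 8 falls (an alternative chosen after seeing the data). DESeq2 called 26 host rises and 11 falls (4.5% and 1.9%, against 4.3% and 0.78% of all genes). By construction, hosts under 3 kb gave 154 uaRNA rises, 4 host rises, and 139 rises and 10 falls relative to the host, and those under 10 kb 742 and 646 rises; requiring a RefSeq span under 5000 left 7 host rises.

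Replicate numbers are shared by 2 pairs only and no label pairs them. Differences between replicates 2 and 3 correlated across the groups (r = 0.44 for uaRNAs and 0.62 for genes). With the replicate number as a block, 344 uaRNAs rose and 13 fell (62.1% and 0.839% of all uaRNAs), 70 hosts rose and 52 fell (12.07% and 8.97%, against 12.3% and 6.65% of all genes), and 329 rose and 27 fell relative to the host (61.9% and 1.72% of all pairs). The block passed Ccdc107 as a fall (log2 -0.49) and did not pass the uaRNA falls of H2bu2, H2aw and Bricd5. With 3 libraries against 2, the number of samples limits the precision, and uaRNAs near a mean of 10 reads are the least certain.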
